A study of Marchantia polymorpha with 12 samples.

Results

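Wounded thalli of the line labelled Mperf15ko were set against wounded thalli of Tak-1, to show which transcripts differed between the lines 1 h after injury. The comparison rests on 6 of the study's 12 libraries, taken by their labels for line and treatment. Values of 3 kinds recur below. The first is the difference between the lines in wounded thalli, the second the same difference in intact control thalli from the other 6 libraries, and the last the difference between those differences.

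Marchantia polymorpha is a liverwort whose body is a flat, branching thallus, and Tak-1 is its standard male laboratory accession. The wounded Mperf15ko group held 3 libraries of 14-day-old thalli collected 1 h after their blades were cut, and the wounded Tak-1 group held 3 libraries treated alike. Control thalli of Mperf15ko and of Tak-1, with 3 libraries each, were the same age and were collected uncut. Plants were grown from gemmae, the clonal propagules of the liverwort, on agar. Each replicate was an independent pool of 12 plants, and the labels describe neither the lesion of Mperf15ko nor whether it is 1 clone. RNA came from whole thalli, so fewer cells of a type and less RNA per cell cannot be told apart in any value below.

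ERF proteins are plant transcription factors of the AP2/ERF family, many of which act in responses to injury, drought and pathogens. Cut plant tissue oxygenates fatty acids with lipoxygenases, and enzymes of the CYP74 family turn the products into oxylipins. In Marchantia the jasmonate-type signal is an OPDA derivative, perceived by COI1 with its JAZ repressor. Injured tissue also commonly makes phenolic compounds from phenylalanine, together with defence proteins secreted into the cell wall. The study's title places ERF15 in wounding, regeneration and oxylipin synthesis.

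The wounded Mperf15ko libraries held 17.2, 20.1 and 17.6 M estimated reads, and the wounded Tak-1 libraries 17.8, 23.3 and 24.6 M. Of 14 marker genes listed for thallus cell types and the germ line, 13 were matched and 11 passed the filter on low counts. Markers of rhizoids, gemma cups, air pores, oil body cells and the apical notch were read in all 6 wounded libraries. The germ line genes MpBNB and MpPRM had 0 reads in each of them. The germ line gene MpDUO1 was read in all 6, at 2.10, 2.93 and 2.55 CPM (estimated reads scaled to library size) in Mperf15ko. It had 1.70, 1.46 and 1.83 CPM in Tak-1 and did not pass the test (adjusted p = 0.15 in edgeR). From the V chromosome, the male sex chromosome, 83 to 85 of 153 genes had a read in the wounded Mperf15ko libraries and 86 to 90 in the wounded Tak-1 libraries. The gene MpVg01290 was left out of these counts. Tak-1 wounded replicate 1 stood apart, since its 10 top genes took 10.9% of its reads, a share of 5.5% to 8.60% elsewhere.

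MpERF15 itself (Mp7g09350) had 23.0, 26.8 and 50.4 CPM (estimated reads scaled to library size) in wounded Mperf15ko thalli, against 26.8, 44.3 and 44.2 CPM in wounded Tak-1 thalli. The groups overlapped, and the log2 fold change (Mperf15ko over Tak-1, as for every fold change below) was -0.20 (SE 0.30, adjusted p = 0.66 in edgeR). Reads summed over the gene therefore did not check the line's label, since how the gene was altered is not described in the labels.

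Between the lines, 3352 of 14246 genes tested differed in wounded thalli (23.5%, edgeR's quasi-likelihood test, Benjamini-Hochberg adjusted p under 0.05, here "called"). Of these, 1685 were higher in Mperf15ko (11.8% of genes tested) and 1667 were lower (11.7%). The lower genes had moved further. Among called genes, 257 were at least 2-fold higher (1.80%) and 735 at least 2-fold lower (5.16%), while 29 were at least 4-fold higher and 255 at least 4-fold lower. The median log2 fold change was 0.46 over the genes called higher and -0.88 over those called lower, against 0.024 over all genes tested. The count of calls depended on single libraries. It was 2096 without Mperf15ko wounded replicate 2, 1832 without Tak-1 wounded replicate 2 and 2210 without Tak-1 wounded replicate 3. The higher genes numbered 1123 and 910 without Mperf15ko wounded replicate 1 and 2, and 752 and 983 without Tak-1 wounded replicate 2 and 3. The lower genes numbered 1080 without Tak-1 wounded replicate 2, and those at least 2-fold higher 162 without Mperf15ko wounded replicate 2. Every Mperf15ko value was above every Tak-1 value for 21.8% of genes tested and below for 19.0%, the background for each statement below that the lines did not overlap.

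Lists of phenolic metabolism were among those with large shares of lower genes, as the plot of gene lists shows. The lists were filled from gene symbols. Here and below, members that "fell" or "rose" were called lower or higher in wounded Mperf15ko thalli than in wounded Tak-1 thalli. The words do not describe a response to the cut. Among 10 tested genes for phenylalanine ammonia-lyase, the entry enzyme from phenylalanine to phenolics, 7 fell and 0 rose, with a median log2 fold change of -1.37. Of 21 tested genes of the chalcone synthase type (PKS/CHS), polyketide synthases that build the flavonoid and bibenzyl skeletons, 12 fell and 1 rose, with a median of -1.0. Among 42 tested polyphenol oxidases, which oxidise phenols to quinones, 19 fell and 1 rose, with a median of -0.89. Leaving out 1 wounded library at a time gave 5 to 7, 11 to 12 and 14 to 19 lower genes in these lists, in that order.

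**Figure D1:**
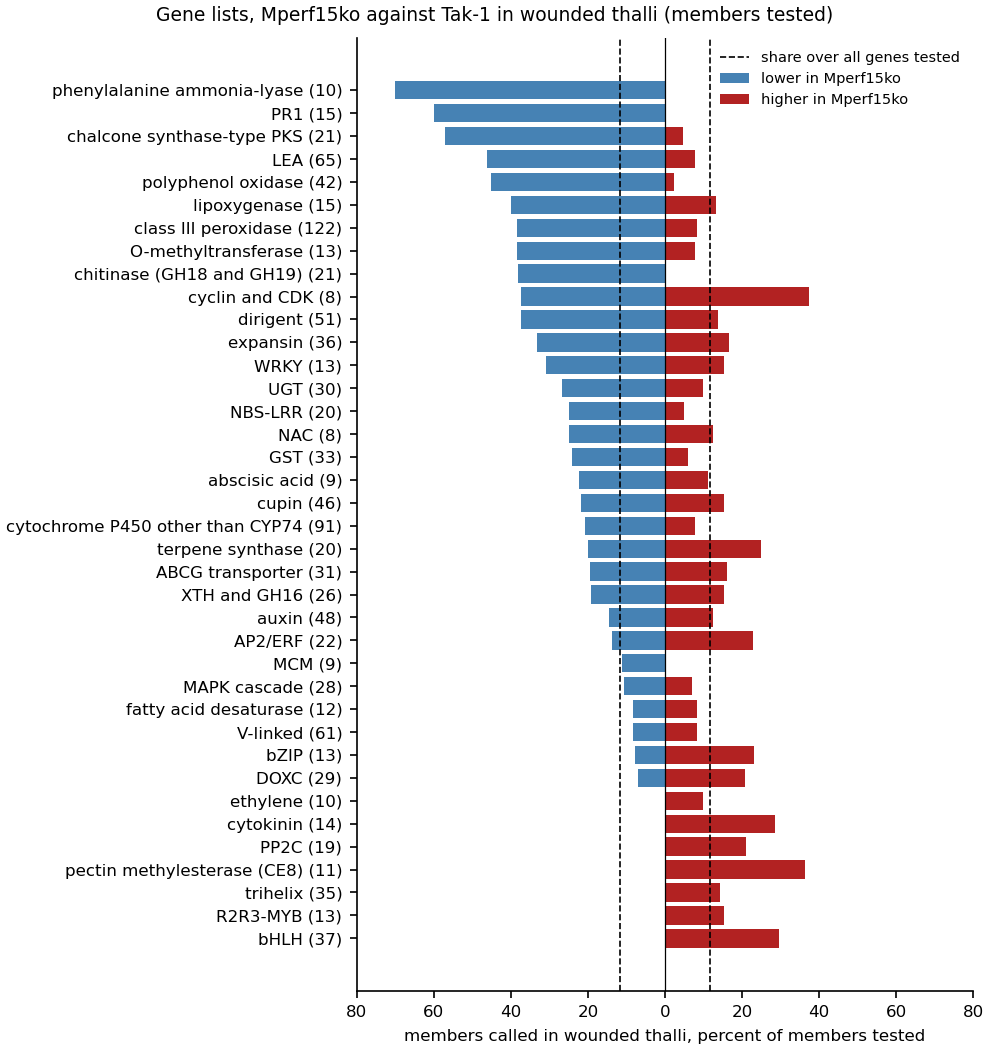
Share of the tested members of each gene list called lower (bars to the left) or higher (bars to the right) in wounded Mperf15ko thalli than in wounded Tak-1 thalli, in percent, for lists with 8 or more tested members (number in brackets). Dashed lines mark the shares over all genes tested, 11.7% lower and 11.8% higher. Phenylalanine ammonia-lyase, PR1 and chalcone synthase-type genes have the longest bars to the left.

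MpPAL3 had 2.22, 2.27 and 1.44 CPM in wounded Mperf15ko thalli, against 20.4, 27.9 and 19.7 CPM in wounded Tak-1 thalli. Every Mperf15ko library was below every Tak-1 library, and the log2 fold change was -3.52 (SE 0.29, adjusted p = 5.1e-06). MpPAL4 had 9.66, 9.86 and 11.0 CPM in Mperf15ko and 52.5, 66.3 and 52.2 CPM in Tak-1, again without overlap (log2 -2.49, SE 0.15, adjusted p = 7.7e-07). MpPAL6 was less well determined. Its values were 0.480, 0.809 and 3.99 CPM in Mperf15ko and 6.02, 24.1 and 15.3 CPM in Tak-1 (log2 -3.11, SE 0.74, adjusted p = 0.015). Its adjusted p was 0.064 without Mperf15ko wounded replicate 2 and 0.051 without Tak-1 wounded replicate 2, and its log2 fold change was -4.56 without Mperf15ko wounded replicate 3.

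The next enzymes of the route changed less. MpC4H1, a cinnamate 4-hydroxylase, had 238, 267 and 261 CPM in wounded Mperf15ko thalli and 392, 408 and 376 CPM in wounded Tak-1 thalli (log2 -0.62, SE 0.07, adjusted p = 5.6e-05). MpC4H2 was lower by a similar factor (log2 -0.69, SE 0.12, adjusted p = 0.0011). MpC4H1 and MpC4H2 both stood apart from their Tak-1 libraries without overlap. Mp4CL2, a 4-coumarate:CoA ligase, went the other way, with 474, 445 and 443 CPM in Mperf15ko and 317, 318 and 336 CPM in Tak-1 (log2 0.49, SE 0.08, adjusted p = 0.0011). So within the C4H and 4CL list of 5 tested genes, 1 rose and 2 fell.

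MpPKS/CHS11 had 4.86, 4.80 and 3.99 CPM in wounded Mperf15ko thalli, against 51.2, 64.5 and 44.4 CPM in wounded Tak-1 thalli (log2 -3.55, SE 0.24, adjusted p = 1.4e-06). MpPKS/CHS12 and MpPKS/CHS13 were lower by a log2 of -3.39 (SE 0.21, adjusted p = 1.2e-06) and -3.20 (SE 0.24, adjusted p = 5.0e-06). None of these PKS/CHS genes overlapped between the lines. MpPPO52 had 0.960, 0.809 and 1.05 CPM in Mperf15ko, against 17.3, 25.0 and 16.5 CPM in Tak-1 (log2 -4.38, SE 0.33, adjusted p = 2.0e-06). MpPPO3 had 2.10, 3.18 and 4.10 CPM in Mperf15ko and 23.4, 39.2 and 27.8 CPM in Tak-1 (log2 -3.26, SE 0.33, adjusted p = 3.3e-05). Many of these genes belong to families with many members, and their estimated reads were not whole numbers in most libraries. Such counts arise where Salmon shares reads among similar transcripts. In the phenylalanine ammonia-lyase list, 1 of 10 tested genes had whole counts (within 0.01) in all 12 libraries, and it was not called. Among called PKS/CHS genes with whole counts, 1 was lower and 0 were higher. Among such polyphenol oxidases, 2 were lower and 1 was higher.

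Enzymes that act on phenols in the cell wall included more lower than higher genes. Of 122 tested class III peroxidases, which oxidise phenols with hydrogen peroxide, 47 fell and 10 rose (median -0.51). Leaving out 1 wounded library at a time gave 36 to 47 lower peroxidases. The count of higher ones was 5 without Mperf15ko wounded replicate 1, 5 without Tak-1 wounded replicate 3 and 6 without Tak-1 wounded replicate 1. Whole counts in every library were found for 24 called peroxidases, of which 18 were lower and 6 higher. MpPOD89 had 6.06, 10.3 and 7.09 CPM in wounded Mperf15ko thalli, against 85.1, 118 and 95.4 CPM in wounded Tak-1 thalli, with no overlap (log2 -3.66, SE 0.29, adjusted p = 1.8e-05). MpPOD26 had 40.7, 39.0 and 35.7 CPM in Mperf15ko and 23.5, 23.3 and 26.9 CPM in Tak-1, so the family also held genes that rose (log2 0.65, SE 0.12, adjusted p = 0.0021).

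Dirigent proteins, which steer the coupling of phenolic radicals in vascular plants, split more evenly. Among 51 tested, 19 fell and 7 rose, and the 7 became 4 without Tak-1 wounded replicate 2. Whole counts in every library were found for 10 called dirigent genes, of which 3 were lower and 7 higher. Most lower dirigent calls thus rest on counts that were not whole. MpDIR33 had 8.28, 9.45 and 9.13 CPM in wounded Mperf15ko thalli and 33.3, 45.6 and 35.3 CPM in wounded Tak-1 thalli (log2 -2.09, SE 0.16, adjusted p = 2.0e-06). MpDIR48 had 11.5, 14.9 and 11.2 CPM in Mperf15ko and 5.85, 3.36 and 3.45 CPM in Tak-1 (log2 1.59, SE 0.32, adjusted p = 0.0039). MpDIR33 and MpDIR48 thus moved in opposite directions, each without overlap between the lines.

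Oil body cells, which store terpenoids and bibenzyls in liverworts, were read through 4 marker genes. Their summed level was 50.9 to 81.4 CPM in the wounded Mperf15ko libraries and 82.3 to 98.2 CPM in the wounded Tak-1 libraries. MpC1HDZ alone gave 44.4 to 72.4 CPM of that sum in Mperf15ko and 73.9 to 88.1 CPM in Tak-1, and the other 3 markers were not called (adjusted p = 0.39, 0.39 and 0.85). Of the 11 tested markers of all cell types, 0 were higher and 1 was lower in edgeR. The lower one was the oil body regulator MpC1HDZ (log2 -0.50, adjusted p = 0.039), whose call was lost without Mperf15ko wounded replicate 2 (0.12), Mperf15ko wounded replicate 3 (0.066), Tak-1 wounded replicate 2 (0.11) or Tak-1 wounded replicate 3 (0.1, all adjusted p). The part of these cells in the lower phenolic genes was not tested. Terpene synthases, by contrast, were divided between 5 genes that rose and 4 that fell, of 20 tested, and 2 fell without Mperf15ko wounded replicate 2 or without Tak-1 wounded replicate 2 or 3. MpMTPSL-like had 56.8, 70.4 and 68.5 CPM in Mperf15ko and 30.2, 34.4 and 36.4 CPM in Tak-1 (log2 0.95, SE 0.12, adjusted p = 1.3e-04). MpFTPSL8 was lower, with 2.58, 3.39 and 1.16 CPM in Mperf15ko and 15.7, 8.78 and 9.55 CPM in Tak-1 (log2 -2.24, SE 0.38, adjusted p = 0.0014).

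**Figure D2:**
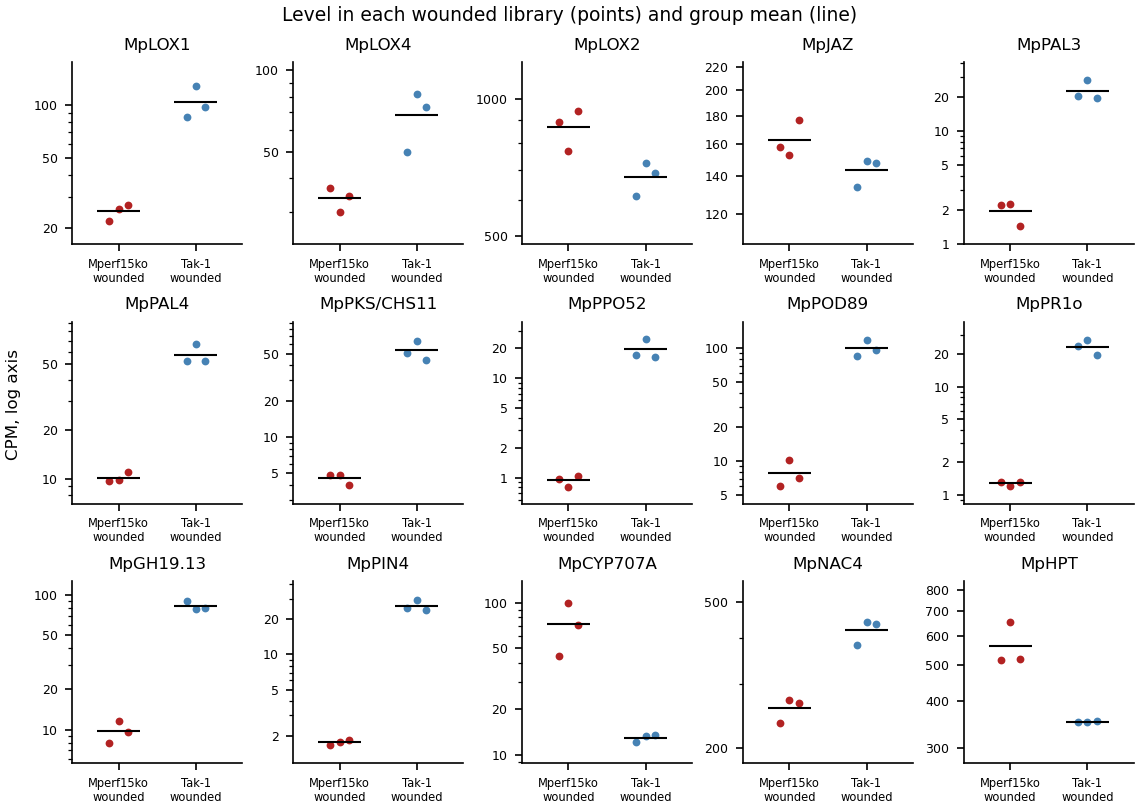
Level of 15 genes in each wounded library, in CPM on a log axis whose range differs between panels. Points are the 3 Mperf15ko libraries (left) and the 3 Tak-1 libraries (right), and lines are group means. The 2 lines do not overlap in any panel, although MpJAZ did not pass the test (adjusted p = 0.12).

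Oxylipin genes did not move as 1 block. Of 15 tested lipoxygenases, 6 fell, 2 rose and 7 were not called, with a median log2 fold change of -0.33. MpLOX1 had 22.1, 25.7 and 27.0 CPM in wounded Mperf15ko thalli, against 85.9, 128 and 96.8 CPM in wounded Tak-1 thalli (log2 -2.06, SE 0.15, adjusted p = 1.4e-06). MpLOX4 had 36.9, 29.9 and 34.2 CPM in Mperf15ko and 50.1, 81.5 and 73.5 CPM in Tak-1 (log2 -1.02, SE 0.20, adjusted p = 0.0041). MpLOX11 was lower by a log2 of -1.71 (SE 0.22, adjusted p = 1.3e-04). All of these were separated between the lines.

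MpLOX2 was the opposite case. Its level per transcript length was also far above that of MpLOX1, at a mean of 328 TPM, transcript counts scaled by length, in wounded Mperf15ko thalli and 257 TPM in wounded Tak-1 thalli, against 9.58 TPM and 40.1 TPM for MpLOX1. It had 888, 769 and 942 CPM in Mperf15ko and 613, 722 and 689 CPM in Tak-1, a log2 fold change of 0.36 (SE 0.10, adjusted p = 0.022). That call rested on single libraries. Its adjusted p was 0.075 without Mperf15ko wounded replicate 1, 0.1 without Mperf15ko wounded replicate 3, and 0.11, 0.05 and 0.068 without Tak-1 wounded replicate 1, 2 or 3. MpLOX7 was also higher, at a low level, with 4.80, 7.63 and 8.69 CPM in Mperf15ko and 2.92, 3.10 and 3.94 CPM in Tak-1 (log2 1.08, SE 0.22, adjusted p = 0.0036).

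Downstream of the lipoxygenases, MpCYP74N2 had 85.5, 80.8 and 128 CPM in wounded Mperf15ko thalli and 109, 194 and 185 CPM in wounded Tak-1 thalli. The lines overlapped, and the call (log2 -0.73, SE 0.23, adjusted p = 0.039) was lost without Mperf15ko wounded replicate 1 (0.13), Mperf15ko wounded replicate 2 (0.14), Tak-1 wounded replicate 2 (0.14) or Tak-1 wounded replicate 3 (0.12), without Mperf15ko control replicate 3 (0.057), Tak-1 control replicate 1 (0.057) or Tak-1 control replicate 2 (0.055), and with a replicate block (0.055), without the low-count filter (0.067) or in a fit of the wounded groups alone (0.1, all adjusted p). MpCYP74N1 did not pass the test (log2 -0.32, adjusted p = 0.087). The JAZ repressor gene MpJAZ had 158, 153 and 177 CPM in Mperf15ko and 134, 149 and 148 CPM in Tak-1 (log2 0.18, SE 0.08, adjusted p = 0.12). None of the 3 tested jasmonate signalling genes was called.

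Lists of secreted defence proteins held lower calls and no higher ones. Of 15 tested PR1 genes, which encode small secreted proteins of the CAP family, 9 fell and 0 rose (median -1.17), and 5 fell without Tak-1 wounded replicate 2. MpPR1o had 1.32, 1.21 and 1.33 CPM in wounded Mperf15ko thalli, against 23.6, 27.3 and 19.5 CPM in wounded Tak-1 thalli (log2 -4.19, SE 0.31, adjusted p = 2.4e-06). Among 21 tested chitinases, which cut the chitin of fungal walls, 8 fell and 0 rose (median -0.45). MpGH19.13 had 7.92, 11.5 and 9.63 CPM in Mperf15ko and 89.1, 78.4 and 80.2 CPM in Tak-1 (log2 -3.08, SE 0.19, adjusted p = 1.3e-06). The thaumatin-like gene MpPR5b had 38.4, 40.8 and 26.9 CPM in Mperf15ko and 104, 119 and 101 CPM in Tak-1 (log2 -1.61, SE 0.17, adjusted p = 5.1e-05). MpPR1o, MpGH19.13 and MpPR5b were each separated between the lines.

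Late embryogenesis abundant (LEA) proteins, hydrophilic proteins linked to water loss and seed or spore maturation, were a further large group. Of 65 tested genes, 30 fell, 29 of them by at least 2-fold, and 5 rose, with a median of -0.51. The 30 were 25 to 31 on leaving out 1 wounded library at a time, and the 5 were 3 without Mperf15ko wounded replicate 2 or without Tak-1 wounded replicate 2. MpLEA-like12 had 1.20, 2.12 and 1.11 CPM in wounded Mperf15ko thalli and 10.9, 7.27 and 9.91 CPM in wounded Tak-1 thalli (log2 -2.65, SE 0.38, adjusted p = 3.0e-04). MpLEA-like8 was among those that rose, with 73.2, 52.1 and 66.5 CPM in Mperf15ko and 39.1, 38.4 and 40.5 CPM in Tak-1 (log2 0.70, SE 0.15, adjusted p = 0.0056). In control thalli the LEA list stood at a lower median, -1.09, with 33 genes lower and 8 higher.

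Hormone genes gave a few large single differences rather than shifts of whole lists. MpPIN4, of the PIN family of auxin efflux carriers, had 1.68, 1.77 and 1.83 CPM in wounded Mperf15ko thalli and 25.1, 29.4 and 24.2 CPM in wounded Tak-1 thalli (log2 -3.89, SE 0.16, adjusted p = 1.0e-08). Its replicates were tight, and its level was also lower in control thalli (log2 -2.97, adjusted p = 1.8e-07). Over 48 tested auxin genes, 7 fell and 6 rose, and the 6 were 1 without Tak-1 wounded replicate 2, 2 without Tak-1 wounded replicate 1 or Mperf15ko wounded replicate 2, and 3 without Mperf15ko wounded replicate 1. Called auxin genes made up 27.1% of those tested, near the 23.5% over all genes tested. MpCYP707A, named after the abscisic acid 8'-hydroxylases that inactivate this hormone, had 44.4, 99.5 and 71.7 CPM in Mperf15ko and 12.2, 13.3 and 13.4 CPM in Tak-1 (log2 2.47, SE 0.39, adjusted p = 0.0021). The Mperf15ko libraries spread widely but all lay above Tak-1. In control thalli the same gene averaged 3.32 CPM in Mperf15ko and 1.49 CPM in Tak-1 (log2 1.12, adjusted p = 0.16), and the difference between wounded and control thalli did not pass (log2 1.35, SE 0.68, adjusted p = 0.48).

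Among cytokinin genes, MpHPT, the phosphotransfer protein of 2-component signalling, had 518, 654 and 521 CPM in wounded Mperf15ko thalli and 352, 351 and 354 CPM in wounded Tak-1 thalli (log2 0.68, SE 0.10, adjusted p = 5.3e-04). In all, 4 of 14 tested cytokinin genes rose and 0 fell, but only 1 rose without Mperf15ko wounded replicate 2 or 3, or without any of the 3 wounded Tak-1 libraries. Of 10 tested ethylene genes 1 was called, against 23.5% of all genes tested. It was MpEIL, of the EIN3 family that carries the ethylene response in flowering plants. MpEIL had 233, 224 and 194 CPM in Mperf15ko and 173, 167 and 168 CPM in Tak-1 (log2 0.36, SE 0.08, adjusted p = 0.0072).

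Some transcription factor families were called in both directions and others in 1. Of 22 tested AP2/ERF genes, the family of ERF15, 5 rose and 3 fell. The background for such family counts was 11.8% higher and 11.7% lower over all genes tested. The 5 were 4 or 5 on leaving out 1 wounded library, whereas the 3 were 0 without Mperf15ko wounded replicate 2 or without Tak-1 wounded replicate 2 or 3, and 1 without Mperf15ko wounded replicate 1 or 3. MpERF9 had 7.32, 10.3 and 8.91 CPM in wounded Mperf15ko thalli and 2.51, 3.14 and 2.48 CPM in wounded Tak-1 thalli (log2 1.70, SE 0.24, adjusted p = 2.9e-04). MpERF11 had 22.3, 19.7 and 16.7 CPM in Mperf15ko and 8.60, 9.85 and 10.6 CPM in Tak-1 (log2 1.01, SE 0.16, adjusted p = 5.9e-04). Both were separated between the lines in wounded thalli. Neither was called in control thalli, where the log2 fold change was -1.16 for MpERF9 (adjusted p = 0.25) and 0.25 for MpERF11 (adjusted p = 0.26), and the difference between the treatments did not pass for MpERF9 (2.86, SE 0.68, adjusted p = 0.063) or MpERF11 (0.76, SE 0.22, adjusted p = 0.14).

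Basic helix-loop-helix (bHLH) genes were called in 1 direction, with 11 of 37 higher and 0 lower. Without Mperf15ko wounded replicate 1, Tak-1 wounded replicate 1 or Tak-1 wounded replicate 2 the 11 were 7, and 1 bHLH gene was lower without Mperf15ko wounded replicate 1 or Tak-1 wounded replicate 1 and 2 without Mperf15ko wounded replicate 3. MpBHLH31 had 22.0, 22.4 and 26.2 CPM in wounded Mperf15ko thalli and 8.71, 9.81 and 11.4 CPM in wounded Tak-1 thalli (log2 1.23, SE 0.15, adjusted p = 6.7e-05). WRKY factors, which bind W boxes in defence promoters of flowering plants, had 4 of 13 genes lower and 2 higher. The 2 were 1 without Mperf15ko wounded replicate 2 or without Tak-1 wounded replicate 1 or 2. MpWRKY7 had 3.0, 3.03 and 3.16 CPM in Mperf15ko and 10.9, 13.3 and 10.4 CPM in Tak-1 (log2 -1.91, SE 0.24, adjusted p = 1.1e-04). MpNAC4, of the NAC family, had 235, 271 and 265 CPM in Mperf15ko and 381, 441 and 436 CPM in Tak-1 (log2 -0.71, SE 0.10, adjusted p = 1.9e-04). MpBHLH31, MpWRKY7 and MpNAC4 were each separated between the lines.

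Cell wall and cell cycle genes were called in both directions. Of 11 tested pectin methylesterases, which alter the stiffness of pectin, 4 rose and 0 fell. The 2 most abundant named members, MpCE8.5 and MpCE8.3, averaged 1190 and 1003 CPM in wounded Mperf15ko thalli against 872 and 743 CPM in wounded Tak-1 thalli (log2 0.45 and 0.43, adjusted p = 0.0068 and 0.0051). Of 36 tested expansins, which loosen walls, 12 fell, 10 of them at least 2-fold, and 6 rose, 1 of them at least 2-fold. The 6 higher expansins were 2 without Tak-1 wounded replicate 1 and 3 without Tak-1 wounded replicate 3 or Mperf15ko wounded replicate 1. MpCDKB, a mitotic cyclin-dependent kinase, had 9.96, 8.14 and 11.4 CPM in Mperf15ko and 14.7, 16.3 and 18.2 CPM in Tak-1 (log2 -0.74, SE 0.16, adjusted p = 0.0045). The D-type cyclin gene MpCYCD_2 was higher, averaging 37.2 CPM in Mperf15ko and 21.0 CPM in Tak-1 (log2 0.82, SE 0.18, adjusted p = 0.0063). MpCDKB and MpCYCD_2 did not overlap between the lines.

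The largest single differences included abundant genes without a symbol. Mp7g02900 had 197, 274 and 202 CPM in wounded Mperf15ko thalli and 5635, 6119 and 5291 CPM in wounded Tak-1 thalli (log2 -4.66, SE 0.21, adjusted p = 6.3e-08). Mp7g01940 had 2607, 2605 and 4702 CPM in Mperf15ko and 308, 335 and 334 CPM in Tak-1 (log2 3.34, SE 0.32, adjusted p = 8.0e-05). Neither gene is annotated with a function in the table of names used here. MpHA11, of the plasma membrane proton pump family, had 0.960, 0.455 and 0.498 CPM in Mperf15ko and 11.5, 10.3 and 10.9 CPM in Tak-1 (log2 -4.11, SE 0.44, adjusted p = 5.6e-05). Only 2 genes had 0 reads in all 3 wounded Mperf15ko libraries and at least 10 in each wounded Tak-1 library, namely Mp2g26420 and MpPOD104, and 0 genes showed the reverse. Among the most abundant lower genes, the call of Mp3g25510 depended on single libraries and on the settings. Its log2 fold change was -1.19, against -0.62 (adjusted p = 0.095) without Tak-1 wounded replicate 1. Its call was also lost without Mperf15ko wounded replicate 1 (0.082), 2 (0.13) or 3 (0.11), without Tak-1 wounded replicate 2 (0.057), without any Mperf15ko control library (0.056 to 0.059), without Tak-1 control replicate 1 (0.051) or 2 (0.069), without the low-count filter (0.076), with a replicate block (0.078) and in the wounded groups fitted alone (0.12, all adjusted p).

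Some of the genes that differed lay side by side. In the order of their gene numbers, 128 runs of 3 or more neighbouring tested genes were called in the same direction. Of these runs, 90 were lower and 38 higher, and they held 462 of the 3352 called genes. Over all genes tested, 11.7% were called lower and 11.8% higher. How many runs would arise at these shares without any clustering was not computed. Runs of 5 or more numbered 17, of which 16 were lower in Mperf15ko. Runs of 3 or more numbered 58 without Tak-1 wounded replicate 2, 64 without Tak-1 wounded replicate 3, 66 without Mperf15ko wounded replicate 2 and 81 without Mperf15ko wounded replicate 1, and runs of 5 or more numbered 9, 9, 9 and 12 in the same order. The longest held 13 lower genes on chromosome 4, from Mp4g14100 to Mp4g14220. It comprised 7 PKS/CHS genes, 4 genes of the ammonia-lyase family and 2 genes without a symbol. Its longest unbroken stretch was 8 genes without Mperf15ko wounded replicate 2 or Tak-1 wounded replicate 2, or in the wounded groups alone, where MpPAL6 lost its call (adjusted p = 0.064, 0.051 and 0.066). Log2 fold changes ran between -1.23 (MpPKS/CHS15) and -3.55 (MpPKS/CHS11). A second run of 10 genes on chromosome 7 held MpPAL3, 3 PKS/CHS genes and 3 peroxidases. Runs of 5 or more held 10 of the 12 lower PKS/CHS genes, 5 of the 7 lower ammonia-lyase genes and 11 of the 47 lower peroxidases. The share of all lower genes that lay in such runs was not computed. Most lower PKS/CHS and ammonia-lyase genes thus lay in such runs, and their sequences were not compared.

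Other runs were of 1 family or of unnamed genes. A run of 8 lower genes on chromosome 5 held 7 peroxidases, MpPOD52 and MpPOD54 to MpPOD59. A run of 5 lower genes on chromosome 6 held MpLEAL3 and MpLEA-like34 to MpLEA-like37. The only higher run of 5 or more held 9 unnamed genes on chromosome 5, from Mp5g04550 to Mp5g04630, with log2 fold changes between 1.17 and 2.26. It held 6 genes without Mperf15ko wounded replicate 1 or 2 or Tak-1 wounded replicate 2 or 3, where Mp5g04550, Mp5g04620 and Mp5g04630 lost their calls (adjusted p = 0.054 to 0.12). Mp5g04570, the most abundant of them, averaged 132 ± 30.3 CPM in wounded Mperf15ko thalli and 30.3 ± 3.94 CPM in wounded Tak-1 thalli (SD, n = 3 each; log2 2.12, adjusted p = 9.7e-06 in edgeR). In the runs of 13, 9 and 8 genes, 0 genes had whole counts in all 12 libraries, so reads there may be split between copies. In a run of 7 lower genes on chromosome 8, from Mp8g08940 to Mp8g09020, 6 had whole counts. All runs were noticed after values had been seen and carry no test of their own.

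**Figure D3:**
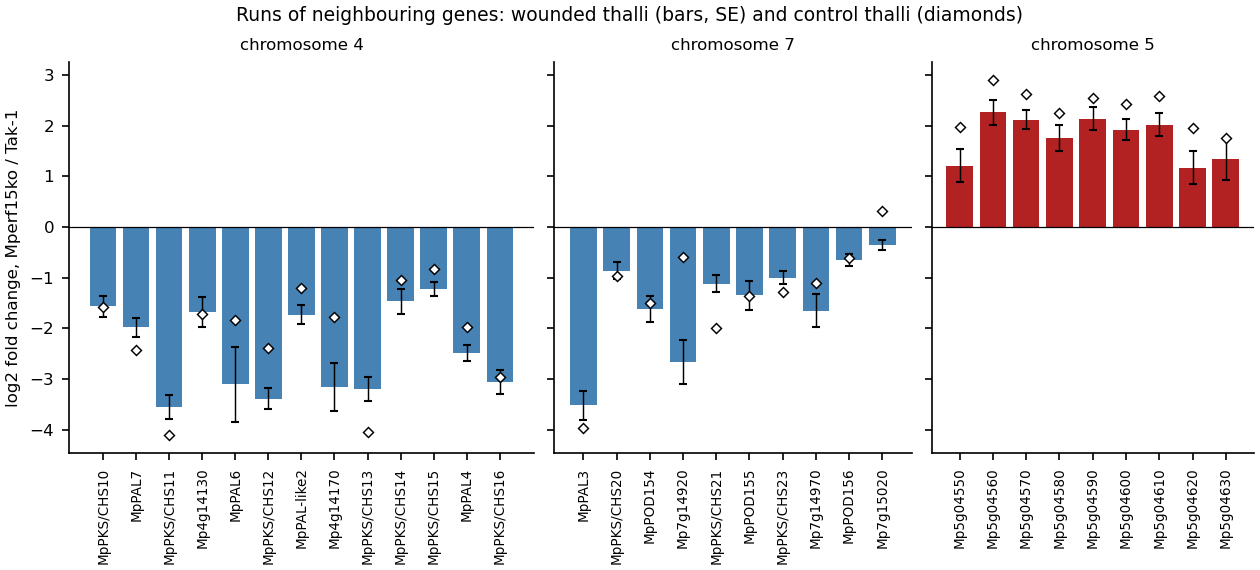
Log2 fold change (Mperf15ko over Tak-1) of the genes in 3 runs of neighbours, in the order of their gene numbers along the horizontal axis. Bars with SE are wounded thalli and diamonds are control thalli. The runs on chromosomes 4 and 7 are lower and the run on chromosome 5 is higher in wounded Mperf15ko thalli, and in control thalli all points but that of Mp7g15020 lie on the same side of 0.

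The differences in wounded thalli were set beside those in control thalli, which come from separate libraries. In control thalli 4010 genes were called between the lines (28.1%), 13.6% of the genes tested being higher and 14.6% lower, and 2565 without Mperf15ko control replicate 3. At least 2-fold higher were 1.52% of the genes tested, and at least 2-fold lower 5.02%. Of the genes higher in wounded Mperf15ko thalli, 863 were also called higher in control thalli, which is 51.2% of the wounded list and 44.7% of the control list. Of the lower genes, 1138 were lower in both, which is 68.3% of the wounded list and 54.7% of the control list. Sign alone was shared by 90.3% of the higher genes and 93.9% of the lower genes. Genes at least 2-fold lower in wounded thalli were called lower in control thalli, at any size of change, in 554 of 735 cases (75.4%), and those at least 2-fold higher in 104 of 257 cases (40.5%).

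**Figure D4:**
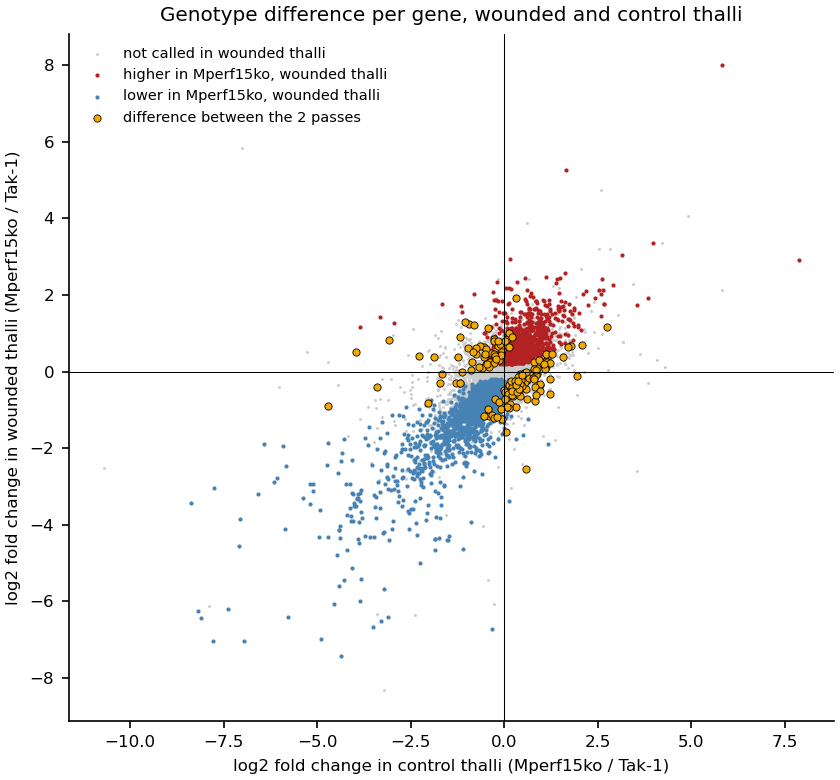
Log2 fold change (Mperf15ko over Tak-1) of each of 14246 genes in control thalli (horizontal axis) and wounded thalli (vertical axis). Red and blue points are genes called higher and lower in wounded thalli, grey points were not called there, and gold points are the 152 genes whose difference between the lines differed between the treatments. Most red points lie right of the vertical zero line and most blue points left of it.

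The strongly lower phenolic and defence genes given next kept their direction in control thalli. Control log2 fold changes were -3.96 for MpPAL3 (adjusted p = 7.1e-06), -4.11 for MpPKS/CHS11 (9.9e-06), -3.90 for MpPPO52 (2.1e-05), -3.83 for MpPOD89 (2.1e-05), -3.21 for MpPR1o (1.4e-05) and -3.04 for MpGH19.13 (2.4e-06). MpLOX1 and MpLOX4 were lower in control thalli too (log2 -1.82 and -1.29, adjusted p = 1.4e-05 and 0.0019). For all 8 genes the test of the difference between the treatments did not pass, with log2 values between -0.98 and 0.56. Other genes of these lists were less alike. MpPAL6 was not called in control thalli (log2 -1.84, adjusted p = 0.1). The ammonia-lyase list had 2 higher and 7 lower genes in control thalli, against 0 and 7 in wounded thalli. The C4H and 4CL list had 0 higher and 3 lower genes in control thalli, against 1 and 2 in wounded thalli. A call in wounded thalli only does not show a wound-specific difference. Of 801 genes higher in wounded thalli and not called in control thalli, 18 passed the test of the difference, and of 504 such lower genes 23 did.

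That test called 152 genes (1.07%), 57 with a higher value in wounded than in control thalli (0.400%) and 95 with a lower one (0.667%). Of these, 99 were also called between the lines in wounded thalli. Among the 99, the line difference had the opposite sign and was called in control thalli for 41, was not called there for 41, and had the same sign for 17. The count depended on the settings. It was 472 in DESeq2, 324 without Mperf15ko control replicate 1, 61 without Tak-1 wounded replicate 2, 65 without Tak-1 wounded replicate 3, 73 without Mperf15ko control replicate 3 and 101 without Tak-1 control replicate 2.

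MpRLK-Pelle_L-LEC28, a receptor-like kinase of the L-type lectin group, had the largest negative difference of the named genes. It had 6.96, 4.70 and 6.09 CPM in wounded Mperf15ko thalli against 29.7, 35.0 and 38.8 CPM in wounded Tak-1 thalli, and 4.25, 3.01 and 4.53 CPM in control Mperf15ko thalli against 2.84, 2.67 and 2.42 CPM in control Tak-1 thalli. Wounded Tak-1 thalli alone stood high. The line difference was -2.55 in wounded thalli (SE 0.17, adjusted p = 1.2e-06) and 0.57 in control thalli (SE 0.19, adjusted p = 0.04), a difference of -3.12 (SE 0.26, adjusted p = 1.1e-04). MpGT8.8, of glycosyltransferase family 8, had 48.9, 44.6 and 39.3 CPM in wounded Mperf15ko thalli against 118, 140 and 137 CPM in wounded Tak-1 thalli, and averaged 35.9 CPM in control Mperf15ko thalli against 34.8 CPM in control Tak-1 thalli. It had no line difference beyond the spread in control thalli (log2 0.05, adjusted p = 0.8), and its difference was -1.62 (SE 0.16, adjusted p = 3.8e-04).

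The signalling kinase gene MpMAPKKK10 had 32.4, 31.7 and 33.5 CPM in wounded Mperf15ko thalli against 51.1, 68.4 and 67.3 CPM in wounded Tak-1 thalli, and averaged 10.9 CPM in control Mperf15ko thalli against 8.76 CPM in control Tak-1 thalli. Its log2 fold change was -0.94 in wounded thalli (SE 0.11, adjusted p = 8.5e-05) and 0.31 in control thalli (SE 0.13, adjusted p = 0.08), a difference of -1.25 (SE 0.17, adjusted p = 0.0041). MpNAC7 crossed sign, with averages of 47.6 and 67.9 CPM in wounded Mperf15ko and Tak-1 thalli, and 21.4 and 11.0 CPM in control Mperf15ko and Tak-1 thalli (difference -1.46, SE 0.21, adjusted p = 0.0069). Its own call in wounded thalli (log2 -0.51, adjusted p = 0.02) was lost without Mperf15ko wounded replicate 1 (0.064) or 3 (0.051) and without Tak-1 wounded replicate 2 (0.053) or 3 (0.072, all adjusted p).

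Among genes called in wounded thalli at a mean of at least 5 CPM, the 6 with the largest positive differences were low in control thalli. They averaged 0.0298 to 1.59 CPM in control Mperf15ko thalli and 0.297 to 4.98 CPM in control Tak-1 thalli. The lowest of these levels rest on few reads per library, so the size of such differences is less certain. MpLEA-like14 had 98.9, 122 and 114 CPM in wounded Mperf15ko thalli against 89.5, 71.0 and 76.3 CPM in wounded Tak-1 thalli, but 0.125, 0.239 and 0.145 CPM in control Mperf15ko thalli against 3.03, 1.45 and 3.38 CPM in control Tak-1 thalli. The lines were thus close in wounded thalli and apart in control thalli, with a difference of 4.45 (SE 0.45, adjusted p = 7.8e-04). Its call in wounded thalli (log2 0.50, adjusted p = 0.033) was lost without Mperf15ko wounded replicate 2 (0.14) or 3 (0.089), Tak-1 wounded replicate 2 (0.16) or 3 (0.12), or Mperf15ko control replicate 3 (0.056), and without the low-count filter (0.054) or with a replicate block (0.05, all adjusted p). Mp5g07510 had 16.7, 14.2 and 19.0 CPM in wounded Mperf15ko thalli against 7.37, 6.20 and 6.66 CPM in wounded Tak-1 thalli, and averaged 0.752 CPM in control Mperf15ko thalli against 1.59 CPM in control Tak-1 thalli. Its line difference had opposite signs, with a log2 of 1.30 in wounded thalli (adjusted p = 4.3e-04) and -1.04 in control thalli (adjusted p = 0.01), a difference of 2.35 (SE 0.33, adjusted p = 0.0048).

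**Figure D5:**
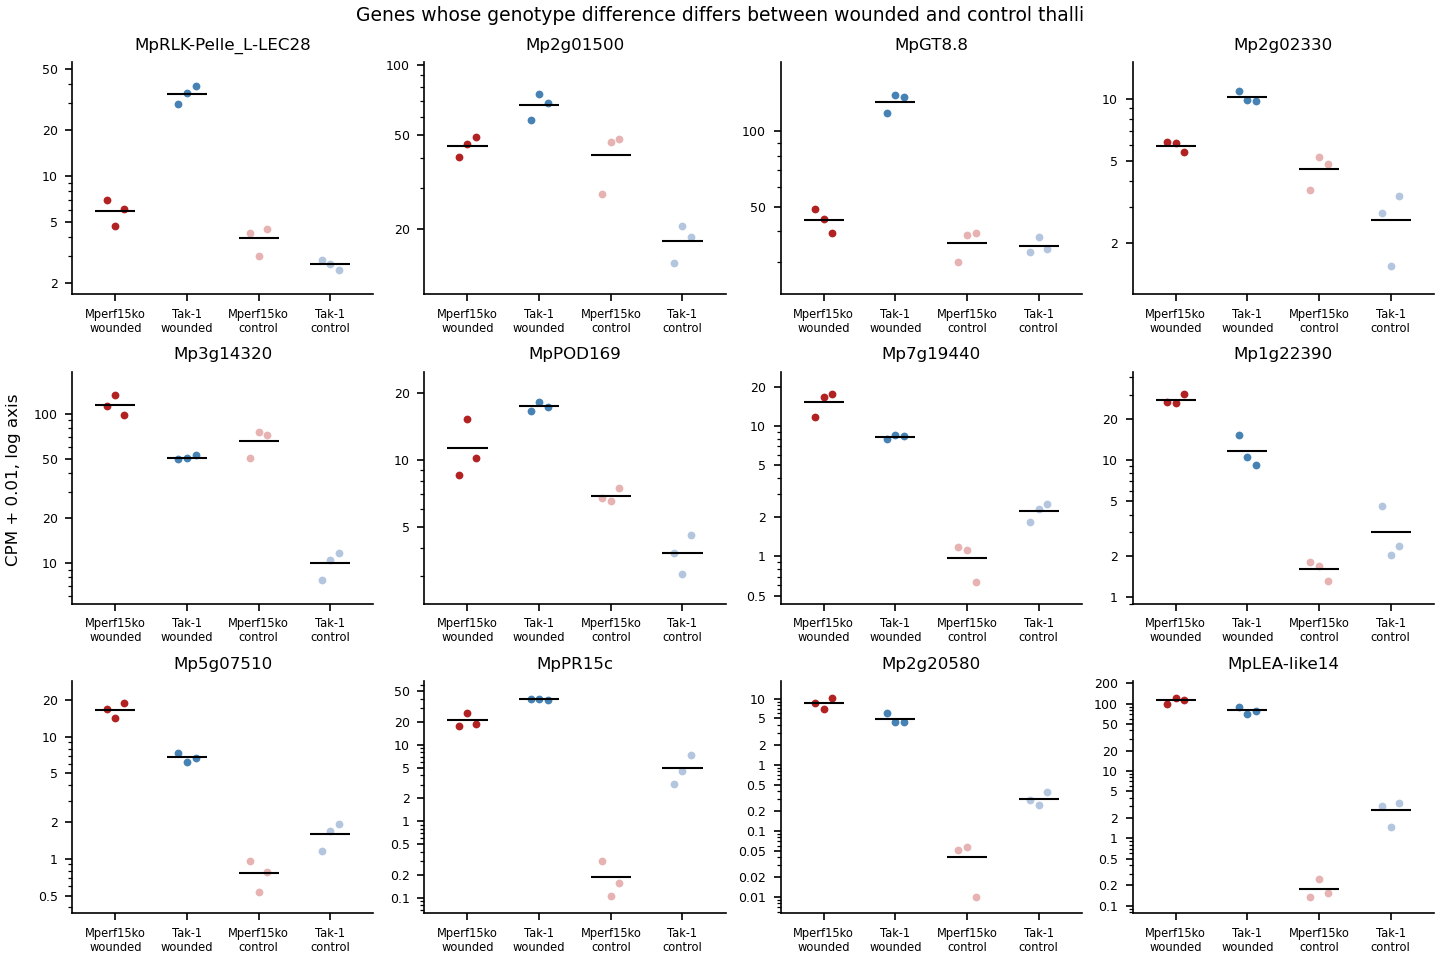
CPM plus 0.01, on a log axis whose range differs between panels, of the 12 genes with the largest differences between the treatments in each direction that were also called in wounded thalli. Points are the 3 libraries of each group, in the order wounded Mperf15ko, wounded Tak-1, control Mperf15ko and control Tak-1, and lines are group means. MpRLK-Pelle_L-LEC28 and MpGT8.8 are high in wounded Tak-1 thalli alone, and MpLEA-like14 is lowest in control Mperf15ko thalli.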

How the data were processed

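RNA of 12 pools of thalli was sequenced after TruSeq Stranded mRNA preparation, per the labels' protocols. CASAVA and Salmon 0.7.2 are the tools listed per the submitters' processing notes. Per the file headers, the deposited files give an estimated count of reads and a TPM value for each of 24751 transcripts. Genome build, annotation and quantification settings were not given in the sources used here. TPM, which the authors deposited scaled by transcript length, was used only to compare levels between genes.

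Estimated counts were summed to 19421 genes and rounded to whole numbers. A low-count filter (filterByExpr, by group) left 14246 genes for testing. The 4 groups were fitted over all 12 libraries (edgeR 4.0.16, glmQLFit robust and glmQLFTest, TMM scaling, R 4.3.3), with Benjamini-Hochberg adjustment over all genes tested, and every adjusted p comes from edgeR unless DESeq2 (1.42.0) is named. CPM values use the TMM factors. SE values were derived from the fitted fold changes and test statistics. Library totals were 17.2 to 30.4 M estimated reads, and the common biological coefficient of variation was 0.126. Intervals from counts would cover counting error only, so spread is given over libraries. The pipeline was tested on simulated data.

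Same-numbered libraries did not deviate together (correlations -0.31 to 0.22, 4 of 18 over 0.1), so the replicate numbers were not taken as pairs. Chi-square per gene between replicates was 15.6 to 63.1, so no pair of replicates agreed within sampling noise.

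Symbols came from a RefSeq gene table of assembly MpTak2_v7.1, by locus tag (17386 of 19421 IDs, 89.5%), and 3091 genes had a symbol. The 42 lists cover only genes with a symbol or, for the V chromosome, an ID. The comparison, lists and tests were chosen with earlier results of these data known. Named genes were MpERF15, all oxylipin genes tested, the 12 largest called changes in each direction without overlap, up to 3 called members of each list in each direction, the 6 largest differences between treatments of each sign among genes called in wounded thalli and the 6 most abundant called genes in each direction, all but the first kinds at a mean of at least 5 CPM. Mp5g04570 and the other genes of runs, the genes with 0 reads and Mp3g25510 as a library-dependent case were chosen after their values were seen. Alternatives changed the scaling, the low-count filter, the tool, the libraries fitted, the replicate block, robust shrinkage and each library in turn. Promoter letters were planned but not analysed here, as no sequence was used.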

Additional observations from a re-analysis of the deposited data

Results flagged for a closer look

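The test of whether the difference between the lines differed between wounded and control thalli (an interaction contrast in edgeR) passed for 152 genes, and 18 named genes are given here for that reason, with values as log2 of the wounded minus the control difference. Higher values in wounded thalli were 4.45 for MpLEA-like14, 3.88 for Mp2g20580, 3.81 for MpPR15c, 2.35 for Mp5g07510, 2.18 for Mp1g22390, 2.07 for Mp7g19440 and 1.60 for Mp5g18240. MpLEA-like14 and MpPR15c had very low levels in control Mperf15ko thalli, and another of these genes had a lower mean there than either. Few reads thus underlie the size of such values. Lower values were -3.12 for MpRLK-Pelle_L-LEC28, -1.79 for Mp2g01500, -1.62 for MpGT8.8, -1.58 for Mp2g02330, -1.56 for Mp3g14320, -1.47 for MpPOD169, -1.46 for MpNAC7, -1.32 for MpDOXC3, -1.25 for MpMAPKKK10, -1.07 for MpPOD26 and -1.03 for MpERF1. MpPR15c, a germin-like gene by its family name, had 17.5, 26.1 and 18.9 CPM in wounded Mperf15ko thalli against 39.1, 40.1 and 37.9 CPM in wounded Tak-1 thalli, and 0.292, 0.0954 and 0.145 CPM in control Mperf15ko thalli against 3.06, 4.46 and 7.43 CPM in control Tak-1 thalli. Mp3g14320 was higher in Mperf15ko in both treatments, with 113, 132 and 98.1 CPM in wounded Mperf15ko thalli against 49.5, 50.3 and 52.5 CPM in wounded Tak-1 thalli, and averages of 65.5 CPM in control Mperf15ko thalli and 9.91 CPM in control Tak-1 thalli. Leaving out 1 library ended the interaction call of Mp1g22390 (adjusted p up to 0.074, without Tak-1 wounded replicate 2), Mp2g02330 (0.076, without the same library), Mp5g18240 (0.068, without Mperf15ko control replicate 3), MpPOD169 (0.066, without Tak-1 wounded replicate 2), MpDOXC3 (0.09, without the same library) and MpERF1 (0.12, without the same library).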

How the results depend on the processing

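No called fold change of a named gene turned its direction under any alternative that was run. The balance of calls in wounded thalli did turn. With TMM scaling in edgeR 1685 genes were higher and 1667 lower. Lower genes were the more numerous under upper quartile scaling (1421 higher, 1836 lower), RLE scaling (1537 and 1723) and in DESeq2 (1712 and 1919). With every library kept, each count over all genes tested stayed within 1.5 times its value, except the genes that differed between treatments, 152 in edgeR and 472 in DESeq2; the cause was not tested. Among the gene lists, upper quartile scaling moved the higher MAPK cascade genes to 0 (2 under TMM), the higher fatty acid desaturases to 0 (1 under TMM) and the lower DOXC genes to 4 (2 under TMM), and RLE scaling moved the higher MAPK cascade genes to 0. Runs of 5 or more neighbouring genes numbered 11 with the replicate block (17 without it). Leaving out 1 of the 12 libraries gave 1832 to 3516 genes called between the lines in wounded thalli (752 to 1760 higher, 1080 to 1756 lower, 162 to 263 at least 2-fold higher and 572 to 780 at least 2-fold lower), 2565 to 4110 in control thalli and 61 to 324 for the difference. With the replicate block the counts were 2926, 3619 and 130, in the same order, and of the genes in the text MpCYP74N2, MpLEA-like14, MpERF1, Mp3g25510 and Mp5g04630 lost their call in wounded thalli, and Mp2g02330 and MpERF1 their interaction call. Upper quartile scaling moved the median of all genes to -0.008 (0.024 under TMM), and the share of higher genes among those called to 43.6% (50.3% under TMM). Over 236 named genes and all alternatives, 4269 log2 fold changes in wounded thalli stayed on their side of the threshold, 444 lost the call and 7 gained it. The alternatives for the lists' counts and for the runs were added after the data were seen. Precision was limited by 3 libraries a group, and reads shared between family copies limit the single genes of the phenolic lists.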
